A study of Mus musculus with 2 samples.

Results

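The 5 imprinted miRNA genes Mir335, Mir483, Mir298, Mir296 and Mir675 were examined in mouse gastrocnemius, a calf muscle. They were chosen by locus and not by their counts, though with earlier results of these data known. Mir335 is from Mest, Mir483 from Igf2, Mir675 from H19, and Mir298 and Mir296 are from the Gnas locus. All 5 were found among the 2202 miRNA gene rows of the count files. The libraries were made from small RNA of male B6CASTF1/J mice aged 25 days, an F1 hybrid of the C57BL/6J and CAST/EiJ strains. There was 1 group with 2 libraries, replicate 1 and replicate 2, no treatment and no other genotype. The labels number the males separately, yet list a single donor identifier for the pair. Every SD below (n = 2) may thus be technical.

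Imprinted genes are transcribed mainly from the chromosome of a single parent. Mest and Igf2 are expressed from the paternal copy in mouse, H19 from the maternal copy, and the antisense transcript Nespas, linked to miR-298 and miR-296, from the paternal copy. A miRNA is cut from a hairpin in a longer RNA, and its seed, bases 2 to 8 of the mature strand, does most of the pairing with target messages. Igf2 is a growth factor of fetal tissue and of muscle growth, and H19 is a long noncoding RNA that is abundant in young muscle. The counts pool both parental alleles, and the host RNAs were not measured here.

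Each hairpin yields a 5p and a 3p product, and a gene row sums the reads of both. The 5 hairpins (RefSeq, GRCm38.p6; 5 of 5 matched by symbol) are shown because they are what the count rows cover, with the mature products in capitals:
Mir335: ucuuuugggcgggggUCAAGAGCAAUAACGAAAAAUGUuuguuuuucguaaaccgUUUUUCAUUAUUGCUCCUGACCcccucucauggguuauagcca
Mir483: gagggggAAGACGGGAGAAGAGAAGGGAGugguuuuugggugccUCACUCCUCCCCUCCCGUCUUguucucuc
Mir298: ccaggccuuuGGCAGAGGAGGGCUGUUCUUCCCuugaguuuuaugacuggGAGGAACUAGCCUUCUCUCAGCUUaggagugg
Mir296: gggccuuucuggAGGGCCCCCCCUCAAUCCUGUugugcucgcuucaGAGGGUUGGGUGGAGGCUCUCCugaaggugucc
Mir675: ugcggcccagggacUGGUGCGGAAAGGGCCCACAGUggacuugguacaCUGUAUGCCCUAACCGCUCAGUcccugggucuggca

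The 10 mature products are shown with the seed in capitals, since the seeds decide whether the genes could be grouped as families:
miR-335-5p: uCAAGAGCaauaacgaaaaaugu
miR-335-3p: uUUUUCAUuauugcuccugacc
miR-483-5p: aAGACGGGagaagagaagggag
miR-483-3p: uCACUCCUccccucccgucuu
miR-298-5p: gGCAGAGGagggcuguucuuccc
miR-298-3p: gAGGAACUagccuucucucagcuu
miR-296-5p: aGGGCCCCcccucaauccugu
miR-296-3p: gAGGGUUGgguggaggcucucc
miR-675-5p: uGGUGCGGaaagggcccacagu
miR-675-3p: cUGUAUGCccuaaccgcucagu

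The 10 seeds were all distinct, and none occurred as the seed of another miRNA among the 1738 mature sequences of the RefSeq table. The genes therefore form no seed family with each other. No hairpin shared a stretch of 20 bases, on either strand, with another of the 2202 annotated hairpins, whereas 1133 of all rows did. The 2 products of Mir483 are lopsided in base content, with 21 purines among the 22 bases of miR-483-5p and 19 pyrimidines among the 21 bases of miR-483-3p. MiR-296-5p holds a run of 7 C. The Mir335 hairpin had the lowest GC content of the 5, at 42.9%, and its products had 30.4% and 36.4% GC. The other hairpins had 58.9% (Mir483), 53.7% (Mir298), 63.3% (Mir296) and 63.1% (Mir675), against a median of 50.8% over the 2202 hairpins. Predicted folding energies ranged from -56.0 kcal/mol for Mir675 to -33.8 kcal/mol for Mir483.

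Gene counts on the strand of the gene totalled 1491341 in replicate 1 and 2028332 in replicate 2. Levels are given as CPM, counts per 1000000 of these gene counts. Reads with more than 1 matching locus, 69.8% and 71.8% of all reads in replicates 1 and 2, were left out of the gene rows by the authors' counting. The muscle label was checked against its markers: Mir206, a miRNA of skeletal muscle, had 53367 and 46543 CPM in replicates 1 and 2. All 10 striated muscle miRNA genes listed had counts in both libraries and together held 5.51% and 4.84% of gene counts. This share was nearly all Mir206, with 96.5% of the level of the list. The other listed genes were far lower, from Mir486 with 1227 and 1372 counts in replicates 1 and 2 down to Mir133a-2 with 1 and 8. Mir1a-1 had 15 and 23 counts, Mir133a-1 18 and 43, and Mir133b 18 and 41. Markers of other cells in muscle were present too: endothelial miRNAs held 7.83% and 8.75% in replicates 1 and 2, smooth muscle and pericyte miRNAs 5.89% and 7.87%, leukocyte miRNAs 0.317% and 0.263% and red cell miRNAs 0.0174% and 0.0355%. The endothelial share was nearly all Mir126a, as Mir126b had 0 counts in replicate 1 and 1 in replicate 2. The liver miRNA Mir122 had 20 and 23 counts, the neuronal Mir9-3 had 1 in each library, and Mir9-1, Mir9-2 and all 3 Mir124a genes had none. In whole muscle, fewer cells of a type and less RNA per cell cannot be told apart. Reads matching more than 1 locus are missing from every marker list, and lists may lose them unequally. The shares of the lists therefore do not rank the cell types. Low or zero counts of single listed genes may also reflect reads left out this way. Those of the Mir1a, Mir133, Mir9 and Mir124a genes thus do not show that these miRNAs were scarce or absent.

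Mir335 was by far the most abundant of the 5 miRNA genes. The hairpin lies on the plus strand at chr6:30741299-30741396 (mm10), in an intron of all 7 Mest transcripts that span it. In human breast cancer cells miR-335 is known for restraining metastasis, and in human mesenchymal stem cells for limiting differentiation. Mir335 had 17423 counts in replicate 1 and 25029 in replicate 2. These correspond to 11683 CPM (exact 95% interval 11511 to 11857) in replicate 1 and 12340 CPM (12188 to 12493) in replicate 2. The mean of 12011 ± 465 CPM (SD, n = 2) placed it 19 in the order of all 2202 miRNA genes, at rank 18 in replicate 1 and 20 in replicate 2. This order leaves out reads matching more than 1 locus. Of the 2202 hairpins, 1133 share a 20-base stretch with another and may lose reads this way, while none of the 5 shares one. Ranks, CPM and shares of the 5 genes may thus be raised against such genes. Matches elsewhere in the genome were not searched, so the 5 may lose reads too. Mir335 took 91.1% of the counts of the 5 genes in replicate 1 and 92.6% in replicate 2.

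Mir483 was second. It lies on the minus strand at chr7:142654924-142654996, in an intron of all 7 spanning Igf2 transcripts and within the overlapping annotated gene Gm49394. MiR-483-3p is known from rat and human adipocytes for limiting the growth factor GDF3. Mir483 had 1415 counts in replicate 1 and 1530 in replicate 2, or 949 CPM (exact 95% interval 900.03 to 1000) and 754 CPM (717 to 793). The intervals did not overlap, and replicate 1 was the higher. Its mean was 852 ± 138 CPM (SD, n = 2), at rank 66.

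Mir298 and Mir296 are neighbours on the minus strand of chromosome 2, separated by 378 bases. Mir298 is at chr2:174267504-174267585 and Mir296 at chr2:174267047-174267125. Neither lies inside a GENCODE M21 gene on its strand. The annotated end of Nespas, the antisense transcript of the Gnas locus, is 13651 bases away from Mir298 and 14111 from Mir296. In mouse cells miR-298 is known for repressing the secretase gene Bace1, and in human endothelium miR-296 is known for a part in blood vessel growth. Mir298 had 194 counts in replicate 1 and 331 in replicate 2, or 130 CPM (exact 95% interval 112 to 149.7) and 163 CPM (146 to 182). Mir296 had 66 counts in replicate 1 and 98 in replicate 2, or 44.3 CPM (34.2 to 56.3) and 48.3 CPM (39.2 to 58.9). For both genes the intervals of the libraries overlapped. Mean levels were 147 ± 23.4 CPM for Mir298 at rank 140 and 46.3 ± 2.87 CPM for Mir296 at rank 196 (SD, n = 2).

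Mir675 was the lowest. It lies on the minus strand at chr7:142577064-142577147, in an exon of 3 of the 4 H19 transcripts that span it and in an intron of the other. In mouse muscle cells miR-675 is known for promoting differentiation by repressing Smad and replication genes. Mir675 had 37 counts in replicate 1 and 42 in replicate 2, or 24.8 CPM (exact 95% interval 17.5 to 34.2) and 20.7 CPM (14.9 to 28.0). The intervals overlapped. Its mean of 22.8 ± 2.90 CPM (SD, n = 2) stood at rank 221, above the 2.01 CPM in replicate 1 and 1.48 CPM in replicate 2 that a count of 0 allows (3 counts).

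**Figure D1:**
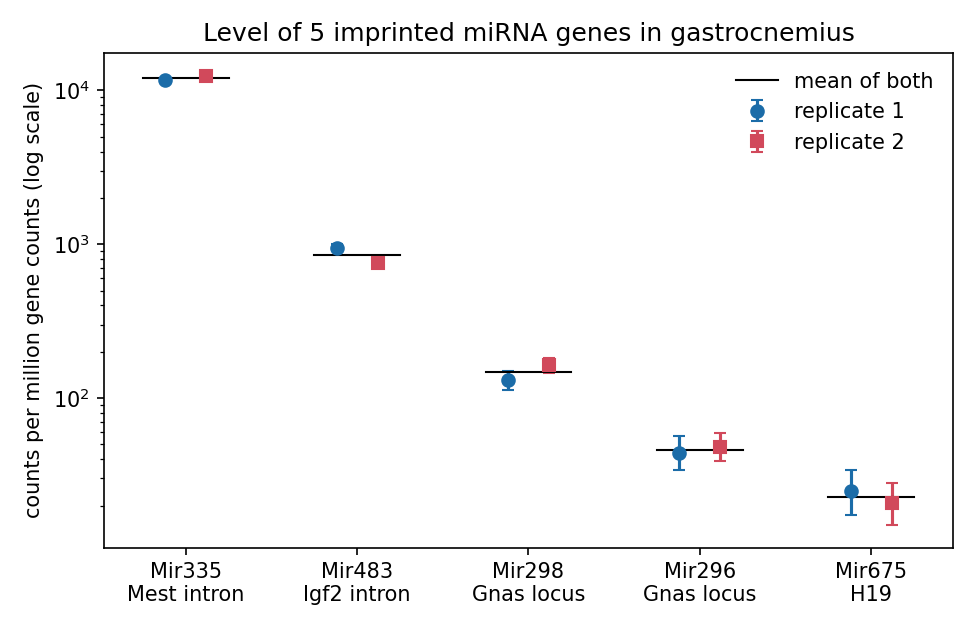
CPM (log scale) of 5 imprinted miRNA genes in each library, replicate 1 as circles and replicate 2 as squares, with exact 95% intervals for counting error and a line at the mean. The order Mir335, Mir483, Mir298, Mir296, Mir675 holds in both libraries, over a range of 12011 down to 22.8 mean CPM.

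The order of the 5 levels was the same in both libraries, and within each library no neighbours in that order had overlapping intervals. The closest were Mir296 and Mir675 in replicate 1, where the lower bound of Mir296 (34.23 CPM) and the upper bound of Mir675 (34.20 CPM) nearly met. Each read stands for a single mature product of 21 to 24 bases, so CPM was not divided by length. Per 100 bases of hairpin the means were 12256 CPM for Mir335, 1167 for Mir483, 179 for Mir298, 58.6 for Mir296 and 27.1 for Mir675, in the same order. Mir335 counts exceeded those of Mir483 by 12.3-fold in replicate 1 and 16.4-fold in replicate 2. Mir335 counts exceeded those of Mir675 by 471-fold and 596-fold in replicates 1 and 2.

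Within each shared locus the members differed. At Igf2-H19, Mir483 and Mir675 are 77776 bases apart and stem from oppositely imprinted genes. Mir483 counts were 38.2 times those of Mir675 in replicate 1 (exact 95% interval 27.6 to 54.5) and 36.4 times in replicate 2 (26.8 to 50.8). The mean log2 ratio of counts was 5.22 ± 0.05 (SD, n = 2), so the libraries gave nearly the same ratio. At the Gnas locus, Mir298 counts were 2.94 times those of Mir296 in replicate 1 (2.21 to 3.95) and 3.38 times in replicate 2 (2.69 to 4.28). The mean log2 ratio was 1.66 ± 0.14, and the intervals of the libraries overlapped. The 4 genes linked to the paternally expressed Mest, Igf2 and Nespas held 19098 counts in replicate 1 and 26988 in replicate 2. Of these, 17423 and 25029 were those of Mir335 alone. Mir675, from the maternally expressed H19, had 37 and 42 counts. These sums cover the 5 genes only and do not compare paternal with maternal output. The miRNA rows of the Dlk1-Dio3 region, expressed from the maternal chromosome, held 9.99% and 9.82% of gene counts in replicates 1 and 2.

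Each of the 5 genes reached 10 counts in replicate 1 and in replicate 2, as did 267 of the 2202, while 1632 had no count at all. The median over those 267 genes was 165 CPM, so Mir335 and Mir483 stood above it and Mir298, Mir296 and Mir675 below. The 5 genes together held 1.28% of gene counts in replicate 1 (exact 95% interval 1.27 to 1.30) and 1.33% in replicate 2 (1.32 to 1.35). Without Mir335 the remaining genes held 1712 counts or 0.115% in replicate 1 and 2001 counts or 0.0987% in replicate 2. On all reads of the files in place of gene counts, the share of the 5 genes was 0.265%.

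**Figure D2:**
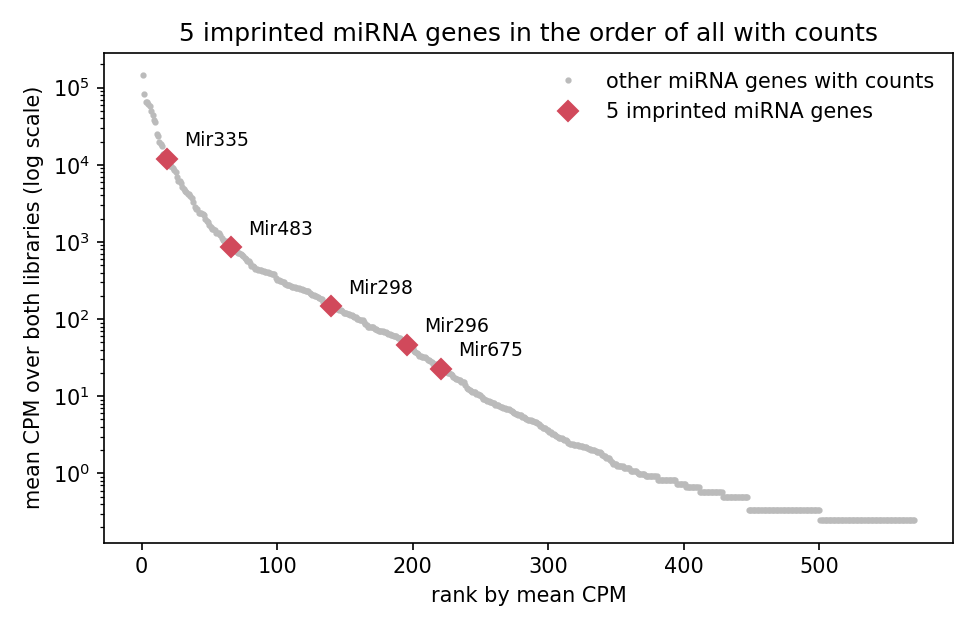
Mean CPM over both libraries (log scale) against rank, for every miRNA gene with counts in either library; grey points are the other genes and red diamonds the 5 imprinted miRNA genes. Mir335 sits at rank 19 among the most abundant genes, Mir483 at 66, and Mir298, Mir296 and Mir675 at 140, 196 and 221.

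The miRNA genes closest in level were found by the distance between log2(CPM + 1) values over both libraries, which are 2 points and show likeness of level only. Mirlet7d (12284 ± 325 CPM) and Mir21a (11739 ± 1194 CPM) were nearest to Mir335, at distances of 0.05 and 0.10. Mir322 (12194 ± 1857 CPM) was next above it in mean level and Mir21a next below, both with larger SDs than Mir335. Mir493 (888 ± 167 CPM) and Mir674 (815 ± 97.0 CPM) were nearest to Mir483, and also next above and below it. Nearest to Mir298 were Mir193b (138 ± 28.6 CPM) and Mir18 (157 ± 42.5 CPM), with Mir376b and Mir671 next above and below in the order. For Mir296 they were Mir664 (45.9 ± 6.16 CPM), also next below, and Mir1983 (48.9 ± 0.0995 CPM), with Mir665 next above. Mir1198 (25.4 ± 3.88 CPM) and Mir138-2 (25.7 ± 1.53 CPM) were nearest to Mir675, at the larger distances of 0.22 and 0.26, and Mir7j and Mir190b stood next above and below it. Each of these neighbours differed from its imprinted gene in mean level by less than the larger SD of the pair, with Mir138-2 as the exception.

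The libraries were then compared gene by gene, as replicate 1 over replicate 2, by an exact binomial test, two-sided, of the raw counts. The expected share of replicate 1 was set by the TMM library sizes. The test sets 1 library against the other, allows for no more than counting error, and compares no conditions. Mir483 was higher in replicate 1, whereas Mir298 and Mir335 were lower in replicate 1. Thus 1 of the 5 genes was higher and 2 were lower, and 2 did not pass, where 18.5% of all 313 tested genes were higher and 19.8% were lower (38.3% in either direction). The 3 genes that passed were those with the most counts. Marker genes of other cells and of muscle also differed by this test: the single endothelial gene tested (Mir126a), both smooth muscle genes and both red cell genes were lower in replicate 1. Of 9 striated muscle genes tested, 3 were higher in replicate 1, among them Mir206, which held 96.5% of that list's level, and 2 were lower (Mir499 and Mir208b). Of 5 leukocyte genes, 3 were higher and 2 were lower (Mir223 and Mir142). The part of these differences in those of the 3 imprinted genes was not tested.

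Mir483 had a log2 ratio of 0.32 (exact 95% interval 0.22 to 0.43, exact binomial test adjusted p = 1.03e-08), or 1.25-fold. Mir335 had a log2 ratio of -0.0893 (-0.12 to -0.06, exact binomial test adjusted p = 1.89e-09), the smallest difference of the 5 with the most counts behind it. Mir298 had a log2 ratio of -0.34 (-0.60 to -0.08, exact binomial test adjusted p = 0.0293). This call ended when genes with at least 1 count were tested (exact binomial test adjusted p = 0.0529), and over all alternatives its adjusted p ran from 0.0192 (exact binomial test, column without strand) to 1 (edgeR exact negative binomial test). Mir296 had a log2 ratio of -0.14 (-0.61 to 0.33, exact binomial test adjusted p = 0.719) and Mir675 of 0.25 (-0.43 to 0.92, exact binomial test adjusted p = 0.646). For both genes no difference within these intervals was excluded at this depth.

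The differences of the 5 genes lay within the range of all tested genes. The median log2 ratio was -0.09 over the 5 genes and -0.05 over all 313, and the median size of the ratio, without its sign, was 0.25 and 0.30. Among the 313 genes, 15.3% had a smaller difference than Mir335, 22.7% than Mir296, 41.5% than Mir675, 51.4% than Mir483 and 54.6% than Mir298. With the spread between the libraries added, estimated from the same 2 libraries as a biological coefficient of variation of 18%, none of the 5 genes passed (adjusted p = 1 for each, edgeR exact negative binomial test). That edgeR test passed 0 of 313 genes, with 15 below an unadjusted p of 0.05, against 120 that passed with counting error only. Taking the spread from the libraries under test weighs against passing any gene.

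**Figure D3:**
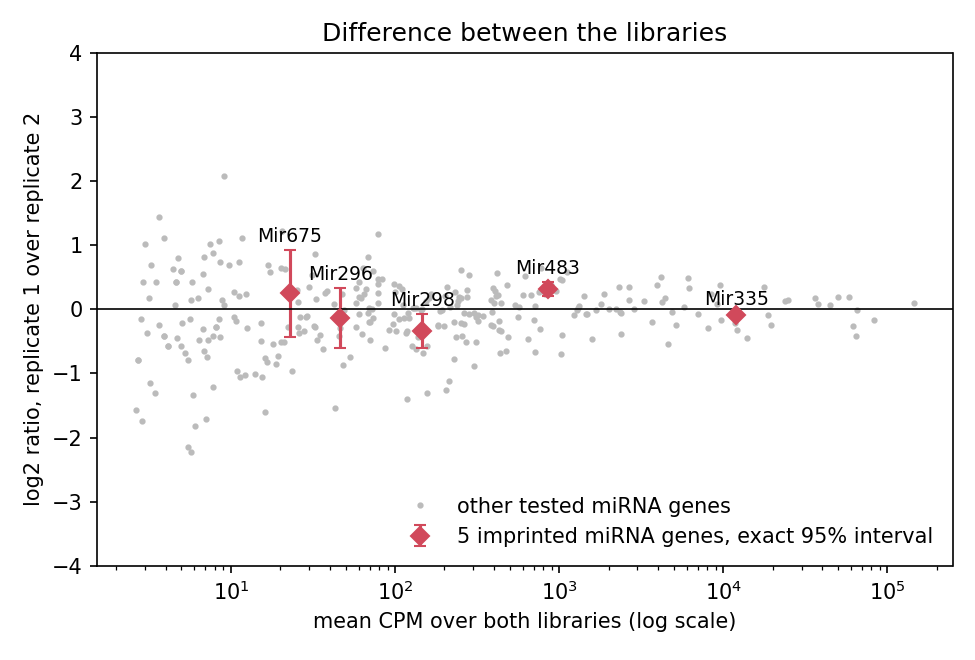
Log2 ratio of replicate 1 over replicate 2 against mean CPM (log scale) for the 313 tested miRNA genes; grey points are the other genes, and red diamonds with exact 95% intervals the 5 imprinted ones. The intervals of Mir483 (above 0), Mir298 and Mir335 (below 0) leave out 0, those of Mir296 and Mir675 include it, and all 5 lie within the cloud of other genes.

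Other sources of imprinted miRNAs were set beside these loci: the Dlk1-Dio3 region of chromosome 12, whose miRNAs come from the maternal chromosome, the cluster inside Sfmbt2, imprinted in placenta, and Mir184, reported as imprinted in mouse. The 67 miRNA rows between Dlk1 and Dio3 held 9.99% of gene counts in replicate 1 and 9.82% in replicate 2, against 1.28% and 1.33% for the 5 genes described here. Of those 67, 2 exceeded Mir335 in mean level, led by Mir127 with 35988 ± 3408 CPM. Below Mir675 were 22, among them the 10 rows without counts in either library. Rows inside Sfmbt2 numbered 119, of which 11 had counts, and together held 0.0599% and 0.0526% in replicates 1 and 2, with Mir467e highest at 253 ± 23.6 CPM. Of these 119 rows, 117 share a 20-base stretch with another annotated hairpin, as do 22 of the 67 Dlk1-Dio3 rows and none of the 5. Since reads matching more than 1 locus were not counted in any row, low Sfmbt2 output and shared sequence cannot be told apart. Mir184 had 55 counts in replicate 1 and 51 in replicate 2, or 31.0 ± 8.30 CPM, between Mir296 and Mir675.

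Between the libraries, 9 of 47 tested Dlk1-Dio3 genes passed as higher in replicate 1, 14 passed as lower and 24 did not pass, beside 18.5% higher and 19.8% lower over all 313 tested genes. Their median log2 ratio, called or not, was -0.02. None of the 7 tested Sfmbt2 genes passed, nor did Mir184 (exact binomial test over all 313 genes). Whether the 5 genes differed from these lists was not tested.

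**Figure D4:**
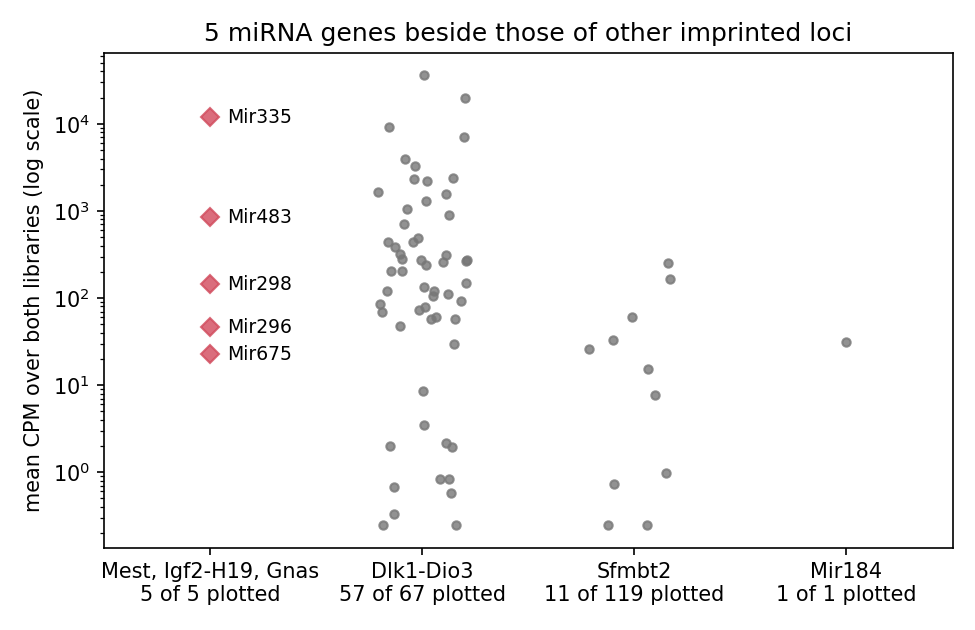
Mean CPM over both libraries (log scale) of each miRNA gene with counts, for the 5 genes of Mest, Igf2-H19 and Gnas (red, all plotted), the Dlk1-Dio3 region (57 of 67 rows plotted), Sfmbt2 (11 of 119) and Mir184; the other rows had no counts, and horizontal scatter within a set carries no value. The 5 genes run from 12011 to 22.8 CPM, within the range of the Dlk1-Dio3 genes.

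Reads on the strand opposite to the gene were counted separately. Mir335, Mir483, Mir298 and Mir296 had none in either library, and Mir675 had 1 in replicate 1 and 4 in replicate 2. No miRNA gene is annotated opposite any of the 5. Their counts without regard to strand were therefore unchanged for Mir335, Mir483, Mir298 and Mir296, and for Mir675 came to 38 in replicate 1 and 46 in replicate 2.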

How the data were processed

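Small RNA of gastrocnemius was sequenced in 2 libraries of 1 group. The deposited files hold raw read counts per miRNA gene, with no normalization; reads were assigned to mm10 with GENCODE M21, per the deposited descriptions. The aligner, like the trimming, is not given in the sources used here. Of 3 count columns without a header, the gene-strand column was used; its total exceeded that of the opposite strand. Summary rows (unaligned reads, 8.11% and 5.99% in replicates 1 and 2, several loci, no gene) stayed out of library sizes.

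Computed here were CPM, exact Clopper-Pearson 95% intervals and exact binomial tests with TMM sizes (edgeR 4.0.16, R 4.3.3), Benjamini-Hochberg adjusted over 313 genes (10 counts or more in the sum of the libraries), threshold 0.05. Intervals and floors cover counting error only. Counts of replicate 1 over replicate 2 (317 genes) were simulated with counting error only. In them the step found 54 of 76 genes at a 1.5-fold change, 42 of 55 at 2-fold and 62 of 65 at 4-fold. It called 7 of 121 unchanged genes. Spread between libraries beyond counting error was not simulated, so these rates do not carry over to the calls in the data. A chi-square of 20979 on 312 degrees of freedom exceeded the sampling noise of a library deposited in duplicate. Alternatives used DESeq2 1.42.0 size factors, totals, other filters, the column without strand and a negative binomial test. Folding used ViennaRNA 2.7.2.

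Genes named were the 5, the 2 nearest in level, those next in rank the highest of each imprinted list, and tissue marker genes from lists set with the design, picked from those lists after their values were seen. The members and lists were chosen with earlier results of these data known. CAST alleles that differ from mm10 were not analysed here.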

Additional observations from a re-analysis of the deposited data

Results flagged for a closer look

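Mir675 had 4 reads on the strand opposite to the gene in replicate 2, above the 3 that a count of 0 allows, and 1 in replicate 1. In replicate 2 they were 8.70% of the 46 reads on both strands (exact 95% interval 2.42 to 20.8). Over the 2138 rows with no miRNA gene opposite, 44 such reads were counted, in 15 genes, and Mir675 was 1 of 4 genes with at least 5 of them over both libraries. Their origin was not tested.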

How the results depend on the processing

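Levels did not move by more than the SD with TMM sizes or with totals over genes with at least 10 counts summed. With the column without strand, whose total is smaller because reads in overlapping genes are left out, mean levels were 16071 CPM for Mir335, 1140 for Mir483, 196 for Mir298, 61.9 for Mir296 and 32.2 for Mir675, the share was 1.75% and the log2 ratio of Mir483 over Mir675 was 5.14. Per 1000000 reads of the whole file, a larger total, they were 2434, 172, 29.8, 9.38 and 4.60, and the share 0.265%. Directions between the libraries held under every alternative. With at least 1 count summed, Mir298 (log2 ratio -0.34) no longer passed, as more genes were adjusted over. With the edgeR negative binomial test, Mir335 (-0.0893), Mir483 (0.32) and Mir298 (-0.34) did not pass, and 0 genes were higher and 0 lower in replicate 1 (15 of 313 at an unadjusted p under 0.05), against 58 and 62. In all, 56 values stayed within their limits, 15 moved and 4 lost a call. Leaving out either library moved no level beyond the SD, which with 2 libraries follows from the arithmetic. No paired analysis was possible because there is 1 group. Depth limits Mir296 and Mir675 most.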
